A study of Danio rerio with 12 samples.

Results

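The transcriptome of DMSO control zebrafish embryos at 27 hours after fertilization was described from 4 sequenced pools of whole embryos. These 4 pools were all the samples labelled as controls, out of 12 samples in the series, and the normalized values of 14134 genes were read in each. Healthy GFP-positive embryos of Danio rerio had been freed from the chorion and kept in DMSO, the solvent of the study's compounds, from 23 to 27 hours after fertilization, so that "untreated" here means without compound for 4 hours. Each pool was RNA from 5 embryos. The strain, the transgene behind the GFP signal, the DMSO concentration and the clutch of each pool are not named in the labels, and no gene in the table is named GFP. The pools, numbered control 1 to control 4, share a group and differ in replicate number alone, so the spread between them may be technical as well as biological. Libraries were made from polyadenylated RNA with a strand-specific kit and read as pairs of 50 bases.

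At this age the zebrafish embryo is in the pharyngula period: the body axis is laid out, the trunk muscle twitches, the heart beats and embryonic red cells circulate. A flat outer sheet of cells, the periderm, covers the skin, and the hatching gland stores the enzymes that later digest the chorion. Nutrition comes from the yolk, whose syncytial layer packs lipid into lipoproteins for the tissues, while the brain, spinal cord and eye still grow by cell division.

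The pools held 16684720, 23962804, 19008202 and 23925723 reads in controls 1 to 4, recovered from the deposited values. Values are CPM, that is read counts relative to the size of the library, after TMM scaling, which corrects each library for differences in make-up. One read was worth 0.0417 to 0.0584 CPM. The limit that a count of 0 allows, 3 reads, came to between 0.125 and 0.175 CPM, counting error only. Control 4 and, on other genes, control 3 stood apart from the remaining pools, as described with the spread between pools. Errors are standard deviations (SD) over the 4 pools (n = 4). Where 4 values follow each other, they are those of controls 1, 2, 3 and 4 in that order. A longer transcript draws more reads, and transcript lengths were not used here, so ranks and shares below are of reads and not of mRNA molecules. In whole embryos, fewer cells of a type and less RNA per cell cannot be told apart.

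Reads were spread unevenly over the genes. The gene with the most reads, krt4, took 1.82% ± 0.179 of a pool's reads, the first 10 genes took 8.74% ± 0.406, the first 100 took 29.2% ± 0.690 and the first 1000 took 63.8% ± 0.511. Counted from the top of the mean ranking, 72 genes held 25% of the reads, 423 genes held 50%, 1898 held 75% and 4498 held 90%. A mean of at least 1000 CPM was reached by 140 genes, or 0.991% of those in the table, which together took 33.6% of the reads. At least 100 CPM was reached by 1758 genes, at least 10 CPM by 8479 and at least 1 CPM by 11990. The middle of the ranking was lppr1, with 16.4 ± 1.22 CPM. At the low end, 173 genes were listed at 0 in all 4 pools, 696 were at 0 in 1 to 3 pools, and 13265 had reads in every pool. The lowest genes above 0, zgc:123078, zgc:136605 and zgc:194655, had a single read each, in control 4, which is below the limit that a count of 0 allows.

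**Figure D1:**
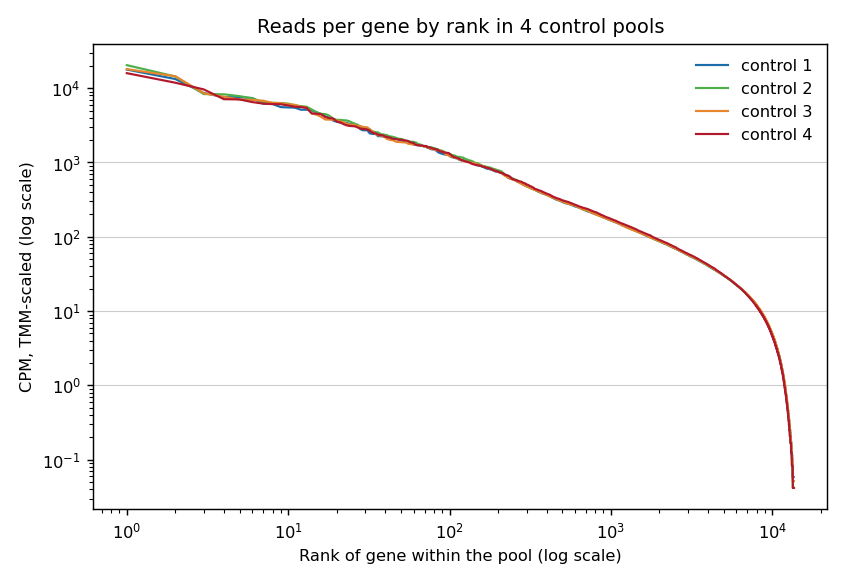
Genes ranked by reads within each control pool, with rank (log scale) on the horizontal axis and TMM-scaled CPM (log scale) on the vertical axis; each line is 1 pool and grey lines mark 1, 10, 100 and 1000 CPM. The 4 curves lie on each other over most of the range, with 2 genes above 10000 CPM by mean and 140 above 1000 CPM.

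Nearly all of the reads that could be assigned to a class came from protein-coding genes. Of the 14134 genes, 13015 were matched by Entrez ID to a RefSeq gene, and 12830 of these were protein-coding and held 93.9% of the reads. The 28 long non-coding RNA genes held 0.0477% and the 137 miRNA genes 0.00303% of the reads, in libraries that select polyadenylated RNA. A single ribosomal RNA gene, zgc:158463, held 0.0778%. The 1119 genes without a match held nearly all of the rest. Mitochondrially encoded genes were not among those analysed here.

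The head of the ranking mixed structural genes of skin and muscle with genes of protein synthesis and of lipid transport. The first 30 genes took 16.6% of the reads. They held 3 keratins, 7 genes listed under translation (tpt1 among them), 4 apolipoproteins and 6 muscle genes. Chaperones, cytoplasmic actins, an alpha globin and single genes of other roles followed. All 30 differed between pools by more than read counting gives. The test was chi-square for homogeneity, with Benjamini-Hochberg adjustment and a threshold of 0.05. So did 63.0% of the 11990 genes tested and all 140 of at least 1000 CPM, so the 30 do not stand out among genes of like abundance. A highest pool at least 1.5 times the lowest was found for 3 of the 30, apoa1b, myhz1.1 and rplp0, against 9.34% of the 8479 genes of at least 10 CPM. Control 4 was the lowest pool for 18 of the 30, as it was for 32.0% of those 8479 genes. Outside the main groups stood cirbpb, a cold-inducible RNA-binding protein gene, with 3281, 3315, 3103 and 3062 CPM, and bhmt, an enzyme that makes methionine from betaine, with 2468, 2838, 3087 and 3561 CPM. The latter was highest in control 4 and lowest in control 1.

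**Figure D2:**
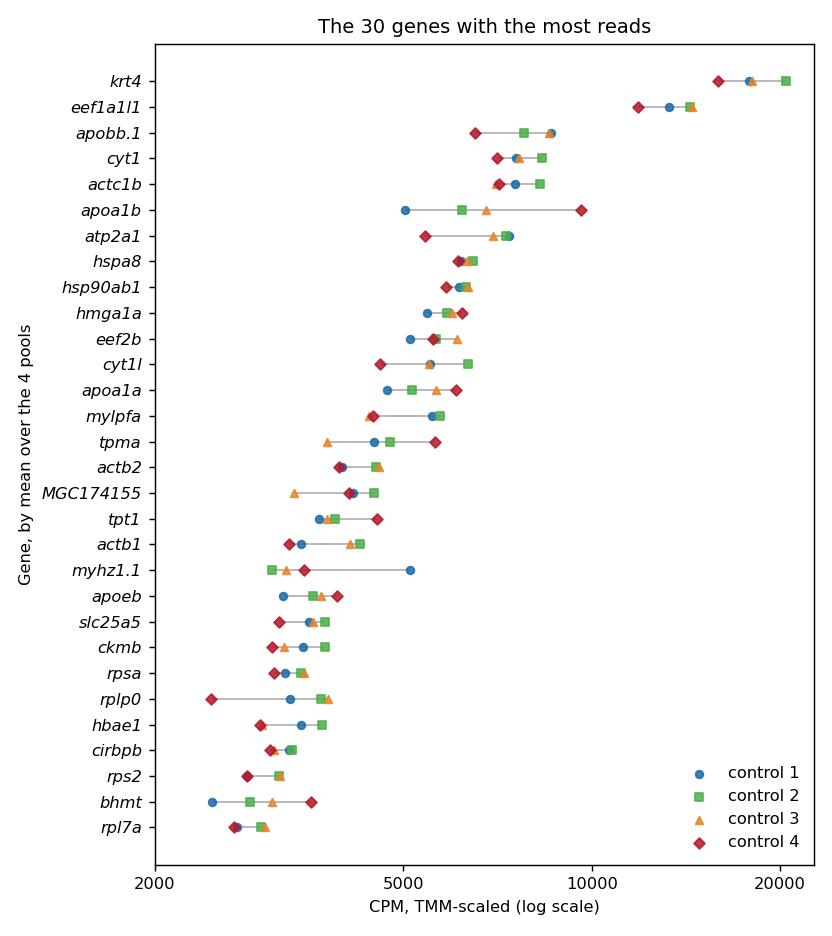
The 30 genes with the most reads, ordered by mean, with TMM-scaled CPM (log scale) on the horizontal axis; each symbol is 1 control pool and grey bars join the lowest and the highest pool. The widest bars belong to apoa1b (1.91-fold), myhz1.1 (1.66-fold) and rplp0 (1.54-fold), and hspa8 has the narrowest (1.06-fold).

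Skin keratins led the ranking. The gene krt4, a keratin of the periderm and outer epidermis, had 17808, 20417, 18048 and 15919 CPM, or 18048 ± 1844 CPM. Its values in all pools lay above those of every other gene in the same pool. The type I keratins cyt1 and cyt1l followed, cyt1 with 7572, 8325, 7653 and 7054 CPM and cyt1l with 5514, 6349, 5485 and 4578 CPM. For all of krt4, cyt1 and cyt1l control 2 was the highest pool and control 4 the lowest. The 17 keratin genes in the table took 3.61% ± 0.307 of the reads, of which krt4 alone made up 50.5%. Much smaller was krt5, another keratin of the epidermis and periderm list, with 1023, 1124, 974 and 1514 CPM. For krt5 control 4 was highest and control 3 lowest, a ratio of 1.55. Keratin genes lie in families of similar sequence, and how the authors' counting treated reads that fit several members is not given in the sources used here, so the division of reads among them is uncertain.

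The machinery of protein synthesis took the largest share of any functional list. The 82 genes of cytosolic ribosomal proteins took 9.76%, 10.3%, 10.6% and 9.38% in the pools, or 9.99% ± 0.526, and 46 of them stood among the 140 genes of at least 1000 CPM. Control 4 was the pool with the smallest share. No single gene dominated the list: the first, rpsa, a protein of the small subunit, held 3.35% of the list's reads, with 3238, 3427, 3469 and 3105 CPM. The large-subunit stalk protein gene rplp0 had 3287, 3685, 3786 and 2459.8 CPM, and control 4 lay below the other pools. Of the 81 ribosomal protein genes of at least 10 CPM, 9 had a highest pool at least 1.5 times the lowest, a share near that of all genes, and 47 were lowest in control 4. By comparison, control 4 was lowest for 32.0% of all 8479 genes of that abundance. Mitochondrial ribosomal proteins, with 68 genes, took 0.220% ± 0.00660, and the first of them, mrpl12, had 63.2 ± 8.56 CPM.

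Translation factors took 4.06% ± 0.141 over 65 genes. The gene eef1a1l1, elongation factor 1-alpha, which brings aminoacyl-tRNA to the ribosome, was second in the whole ranking with 13264, 14349.9, 14445 and 11833 CPM. Control 3 was highest and control 4 lowest. The gene eef2b, which encodes the factor that moves the ribosome along the message, had 5126, 5633, 6081 and 5569.8 CPM. Next came tpt1, the translationally controlled tumour protein gene, with 3660.4, 3879.7, 3766 and 4531 CPM, where control 4 lay above the other pools. The list's share counts tpt1, although it is not itself an initiation or elongation factor. With eef1g, part of the exchange factor of elongation factor 1, at 1548 ± 79.2 CPM and eif5a at 1534 ± 129 CPM, these 5 genes took 2.64% of the reads.

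Genes of muscle contraction and muscle energy supply took 6.14% ± 0.513 over 72 genes, the second largest share. The list was drawn up after the values had been seen, as was that of the apolipoproteins. The sarcomeric actin gene actc1b led with 7546, 8267, 7027 and 7103 CPM. The calcium pump of the sarcoplasmic reticulum, atp2a1, had 7362, 7297, 6951 and 5422 CPM, with control 4 below the others. The fast myosin light chain gene mylpfa had 5558, 5721, 4401 and 4471 CPM: controls 1 and 2 were high and controls 3 and 4 low. Alpha-tropomyosin, tpma, had 4490.0, 4761, 3773 and 5617 CPM, with control 4 highest and control 3 lowest. The fast myosin heavy chain gene myhz1.1 had 5127, 3083, 3247 and 3462 CPM, and control 1 stood above the other pools. Creatine kinase ckmb, which buffers ATP in muscle, had 3449, 3749, 3224 and 3084 CPM. Of the 59 muscle genes of at least 10 CPM, 16 had a highest pool at least 1.5 times the lowest, or 27.1% against 9.34% of all genes of that abundance. The calcium buffers of fast muscle were among them: pvalb2 had 1283, 1638, 985 and 811 CPM and pvalb1 1354, 1560.2, 958 and 974 CPM. The myosin heavy chains myhz1.1, myhz1.2 and myhz2 are near-identical copies, so their separate values are uncertain.

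Apolipoproteins took 3.05% ± 0.190 of the reads with only 10 genes. The apolipoprotein B gene apobb.1, which encodes the scaffold of large lipoproteins and has a very long transcript, followed eef1a1l1 in the ranking with 8604, 7799, 8539 and 6494 CPM. Control 4 was lowest. The apolipoprotein A-I genes went the other way, with apoa1b at 5023, 6195, 6777 and 9619 CPM and apoa1a at 4711, 5166, 5637 and 6069 CPM: in both genes control 1 was lowest and control 4 highest. The ratio of highest to lowest pool of apoa1b was 1.91. The apolipoprotein E gene apoeb had 3208, 3583, 3689 and 3916 CPM. With 2432, 2345, 2257 and 2066 CPM, apoa2 was highest in control 1 and lowest in control 4, as apobb.1 was. Of the 10 genes, 5 were lowest and 4 highest in control 4, against 32.0% and 38.7% of all genes of at least 10 CPM.

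Chaperones and peptidyl-prolyl isomerases took 2.80% ± 0.0318 over 109 genes, a share with a coefficient of variation (CV, SD over mean) of 1.13%. The constitutive Hsp70 gene hspa8 had 6178, 6461, 6309.5 and 6105 CPM and the Hsp90 gene hsp90ab1 6123, 6294, 6338 and 5843 CPM. Their highest and lowest pools differed 1.06-fold and 1.08-fold. Over the list's 85 genes of at least 10 CPM the median CV was 7.73%. Of those 85, 9 had a highest pool at least 1.5 times the lowest, or 10.6% against 9.34% of all such genes. The small SD of the share is thus not that of each gene. Histones and high mobility group proteins took 1.79% ± 0.0172, led by hmga1a, a chromatin protein of dividing embryonic cells, with 5460.2, 5864, 5972 and 6194 CPM. The high mobility group gene hmgb2b had 1050.4, 1123, 969.9 and 1549 CPM, high in control 4 and low in control 3. Splicing factors and heterogeneous nuclear ribonucleoproteins took 1.98% ± 0.116, and 48 of 75 of those genes of at least 10 CPM were highest in control 4, whereas control 4 was highest for 38.7% of all genes of that abundance. The first was hnrnpaba, with 1676, 1608, 1491 and 2169 CPM, high in control 4.

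The cytoskeleton, energy metabolism and matrix took smaller shares. Actins and small actin-binding proteins took 1.47% ± 0.0698, led by the cytoplasmic beta-actins actb2, at 4253 ± 333 CPM, and actb1, at 3771 ± 486 CPM. Tubulins took 0.858% ± 0.0677, and 11 of 13 of at least 10 CPM were highest in control 4, against 38.7% of all such genes; the first, tuba8l4, had 1681, 1803, 1879 and 2310.2 CPM. The mitochondrial ADP/ATP exchanger slc25a5 had 3532, 3743, 3577 and 3166 CPM and was the first of 280 solute carriers, which together took 1.19% ± 0.0311. Subunits of the respiratory chain and ATP synthase took 1.04% ± 0.0463, and 47 of 77 of at least 10 CPM were lowest in control 4 and 44 highest in control 2. Of all genes of that abundance, 32.0% were lowest in control 4 and 18.5% highest in control 2. The ATP synthase beta subunit gene atp5b led them with 917, 997, 974 and 823 CPM. Glycolytic enzymes took 0.567% ± 0.0338, with gapdh at 1011 ± 57.0 CPM. Fibrillar and basement membrane matrix genes took 1.29% ± 0.0482, led by col1a1a, a chain of type I collagen, with 2141, 2231, 2288 and 1989 CPM.

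The listed families of regulators took small shares of the reads, and these shares depend on how many genes a list holds. The 80 genes of the sox, fox and pax families took 0.404% ± 0.0302, led by the neural factor genes sox11b, with 897, 864, 695 and 946 CPM, and sox11a, with 412 ± 18.5 CPM. Control 4 was highest for 37 of 51 members of at least 10 CPM, against 38.7% of all such genes. The 48 hox genes, which pattern the body axis from head to tail, took 0.0977% ± 0.00725 together. The first, hoxb3a, which acts in the hindbrain, had 98.2, 102, 96.2 and 111 CPM. Of 33 hox genes of at least 10 CPM, 22 were highest in control 4 and 19 lowest in control 3, against 38.7% and 24.6% of all such genes. All functional lists together, without genes of placeholder names, covered 1415 genes and 44.0% ± 0.923 of the reads. Genes with placeholder names numbered 1780 and took 4.28% ± 0.0952. Among them zgc:174153, at 1946 ± 159.5 CPM, and zgc:174855, at 1934 ± 315 CPM, carry cathepsin L (ctsl) as a synonym in RefSeq.

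**Figure D3:**
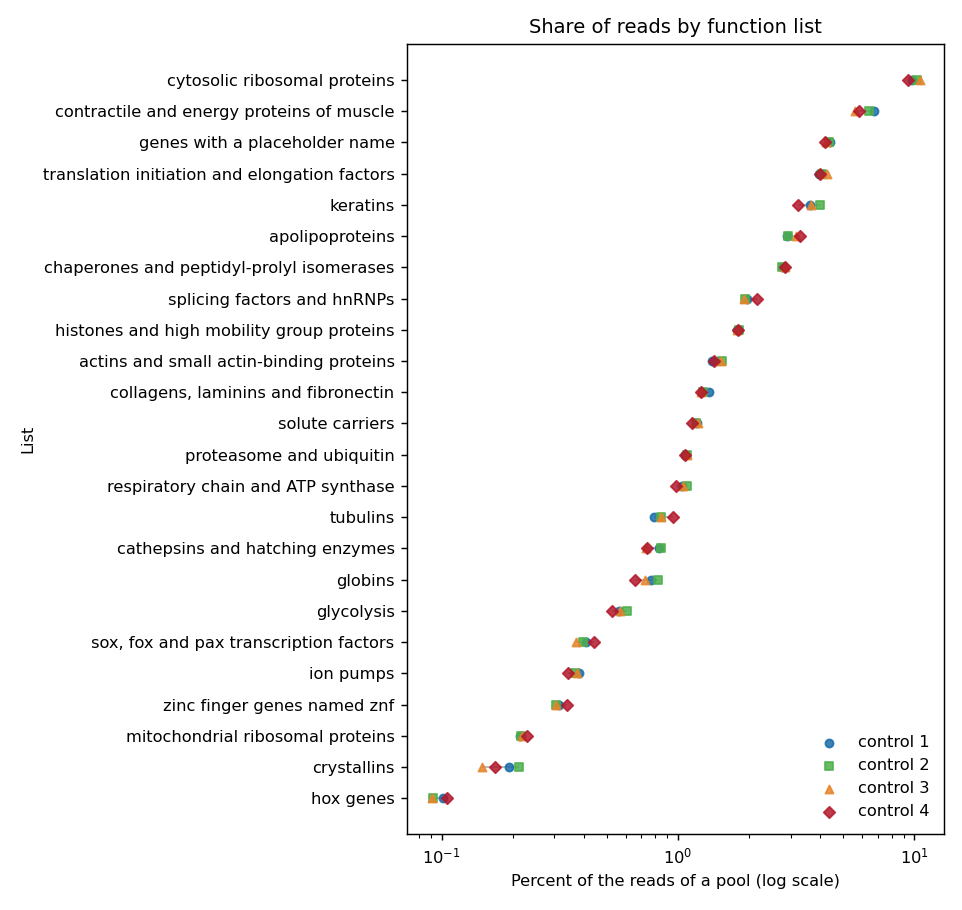
Share of a pool's reads taken by each function list, with percent of reads (log scale) on the horizontal axis; each symbol is 1 control pool and grey bars join lowest and highest. Cytosolic ribosomal proteins head the lists at a mean of 9.99% and hox genes close them at 0.0977%; crystallins have the widest bar.

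Tissue marker lists, which overlap the function lists, took 16.6% ± 0.682 of the reads over 413 genes. The lists differ in how many genes they hold and how long those are, so their shares describe where reads fell and not the sizes of the tissues. Skeletal muscle took 6.07%, 5.80%, 5.03% and 5.20% (mean 5.53%, SD 0.494), and control 3 was lowest. Epidermis and periderm took 3.82%, 4.203%, 3.86% and 3.42% (mean 3.82%, SD 0.319), with control 2 highest and control 4 lowest. The yolk syncytial layer and liver list took 3.04%, 3.09%, 3.39% and 3.45% (mean 3.24%, SD 0.205), of which most was the apolipoproteins above. All 3 lists have members among the first 30 genes of the ranking. The lists were chosen with earlier results of these data known, so nothing is read from this.

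The hatching gland took 0.577%, 0.583%, 0.441% and 0.456%, or 0.514% ± 0.0762, from 7 genes in the table of 14 listed. Controls 1 and 2 were high and controls 3 and 4 low. The hatching enzyme gene he1a, a secreted protease that digests the chorion, had 2717, 2826, 2176 and 2209 CPM, and its near-identical neighbour he1b had 1553, 1631, 1049 and 1028 CPM. The cathepsin gene ctslb, a marker of the gland, had 1075, 1125, 839.9 and 1059 CPM. How reads were divided between he1a and he1b is uncertain. Of 7 hatching gland genes of at least 10 CPM, 4 had a highest pool at least 1.5 times the lowest, against 9.34% of all genes of that abundance.

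Embryonic red cells were marked by 6 globin genes, which took 0.743% ± 0.0671. The erythrocyte list took less, 0.538% ± 0.0450, and does not hold hbae1, the globin gene with the most reads. Neither that share nor that of all tissue lists together counts the reads of hbae1. The alpha globin gene hbae1 had 3429, 3701, 2966 and 2950.1 CPM and hbae3 had 1697, 1890.0, 1703 and 1370.0 CPM. The beta globin gene hbbe3 had 1289, 1462, 1297 and 1346 CPM and hbbe1.1 had 1000.2, 1103, 1098 and 859 CPM. Control 2 was the highest pool for all 5 globin genes of at least 10 CPM, as it was for 18.5% of all such genes. The anion exchanger of the red cell membrane, slc4a1a, also had its highest value in control 2, at 254 ± 34.4 CPM over the pools. The next marker by reads, sptb, was highest in control 1, with 278, 242, 237 and 203 CPM. Of the 16 erythrocyte list genes of at least 10 CPM, globins among them, 7 were highest in control 2. Controls 1, 3 and 4 were highest for 2, 4 and 3 of them. Globin genes are similar in sequence, and reads could be shared among them.

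Markers of dividing cells took 0.813% ± 0.0163 of the reads, with mki67, a protein of the surface of mitotic chromosomes, at 1122, 1038, 1057 and 921 CPM and pcna, the sliding clamp of DNA polymerase, at 916, 986, 945 and 846 CPM. None of the 23 proliferation genes of at least 10 CPM had a highest pool 1.5 times the lowest, against 9.34% of all such genes. Neural progenitors and glia took 0.504% ± 0.0247, led by the receptor gene notch3, with 751, 639, 569.5 and 549.9 CPM. Markers of neurons took 0.226% ± 0.0165. Their first member tubb5, a neural tubulin in zebrafish, had 504, 519, 446 and 654 CPM, and the RNA-binding protein gene elavl3 had 222, 217, 208 and 231 CPM. Control 4 was highest for 18 and control 3 lowest for 15 of 27 neuronal genes of at least 10 CPM, against 38.7% and 24.6% of all such genes. None of the 27 reached a ratio of 1.5, against 9.34%.

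The eye was seen mainly through the lens. Lens markers took 0.208%, 0.229%, 0.160% and 0.181%, or 0.194% ± 0.0300. The beta crystallin gene crybb1, a structural protein of lens fibres, had 277, 329.8, 245 and 295 CPM, and crybb1l2 had 257, 276, 189 and 228 CPM. In both, control 2 was highest and control 3 lowest. Of the 24 crystallin genes of at least 10 CPM, 21 were highest in control 2 and 19 lowest in control 3, against 18.5% and 24.6% of all such genes. A highest pool at least 1.5 times the lowest was found for 14 of the 24, 58.3% against 9.34%. Retina and eye field genes took 0.0309%. Control 3 was lowest for 6 of 8 retina genes of at least 10 CPM, against 24.6% of all such genes. The ear list took 0.0244%, led by stm (starmaker), an otolith protein gene, with 73.6, 71.5, 73.5 and 96.0 CPM, and by oc90, another otolith protein gene, with 53.2, 52.9, 58.8 and 95.7 CPM, in which control 4 stood above the other pools. Of 6 ear genes of at least 10 CPM, 3 were highest in control 4 and 3 in control 2, against 38.7% and 18.5% of all such genes.

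Skeleton, notochord and neural crest followed. Cartilage and mesenchyme took 0.470% ± 0.0279 and the notochord 0.253% ± 0.0252. Both lists hold the type II collagen gene col2a1a, with 1268, 1189.7, 979 and 1011 CPM, which made up 44.4% of the notochord list's reads. In the cartilage and mesenchyme list the type I collagen gene col1a1a made up 46.5%. The first 5 of its 14 genes took 0.449% of the reads, so that share rests on few genes. The notochord genes col9a1b, a type IX collagen chain, and cmn (calymmin) had 608, 583, 475 and 674 CPM and 380.2, 322, 297 and 329.6 CPM. Control 3 was lowest for 7 of 10 notochord genes of at least 10 CPM, against 24.6% of all such genes. Pigment cells and neural crest took 0.261% ± 0.00426. The first gene of that list, paics, made up 29.7% of its reads, with 760, 858, 781 and 672 CPM, lowest in control 4. The melanosome protein gene pmela had 253, 260.5, 267 and 217 CPM. The melanin enzyme gene tyrp1b had 229, 221, 229 and 227 CPM, with a CV of 1.60%. Members differed in direction between pools, so the small SD of the share is not that of each gene. The gene pts, which acts in tetrahydrobiopterin synthesis, had 270.1, 259, 274 and 477 CPM, with control 4 far above the others. Fin fold genes took 0.0762%, and the first of them, and1, a protein of the actinotrichia fibres, had 218, 243, 214 and 272 CPM.

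The lists of smaller organs took under 0.1% each. Ionocyte markers took 0.0700%, pronephros markers 0.0502% and endothelial markers 0.0463%. Carbonic anhydrase ca2, used by ionocytes, had 257, 281, 237 and 239 CPM. The cadherin gene cdh17, of the pronephric duct, had 118, 118, 133 and 113 CPM. The scavenger receptor gene stab2 and the receptor gene kdrl, both of endothelium, had 63.0, 50.8, 64.4 and 60.0 CPM and 45.9, 41.9, 42.4 and 39.4 CPM. Heart markers took 0.0274%: the ventricular myosin gene vmhc had 89.2, 76.6, 95.7 and 91.4 CPM and myl7, a cardiac light chain, 46.1, 50.6, 55.9 and 51.7 CPM. Tailbud genes took 0.0276%, with the Notch ligand gene dlc at 122, 122, 104 and 96.5 CPM. Of the reads of that list dlc made up 40.8%, and the next gene, hes6, is also on the neural progenitor list. Only 5 of its 18 genes in the table reached 10 CPM. Endoderm and pancreas took 0.0238%, with the endoderm factor genes gata6 at 32.0, 32.3, 32.8 and 34.5 CPM and foxa3 at 24.8, 27.4, 30.9 and 34.1 CPM. The first gene of that list, neurod1, made up 21.2% of its reads and is also on the neuron list. It had 48.8, 47.8, 42.2 and 60.9 CPM. Control 4 was highest for 6 of the 7 listed genes of at least 10 CPM, against 38.7% of all such genes. Germ cell markers had the fewest reads of the 23 lists, with 280, 463, 315 and 385 reads in the pools. In control 1 that was 0.00168% of the reads (95% Wilson interval 0.00149% to 0.00189%) and in control 2 0.00193% (0.00176% to 0.00212%), counting error only. The RNA helicase gene ddx4 (vasa), the marker that defines germ cells, had 6.31, 7.92, 5.84 and 5.75 CPM.

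**Figure D4:**
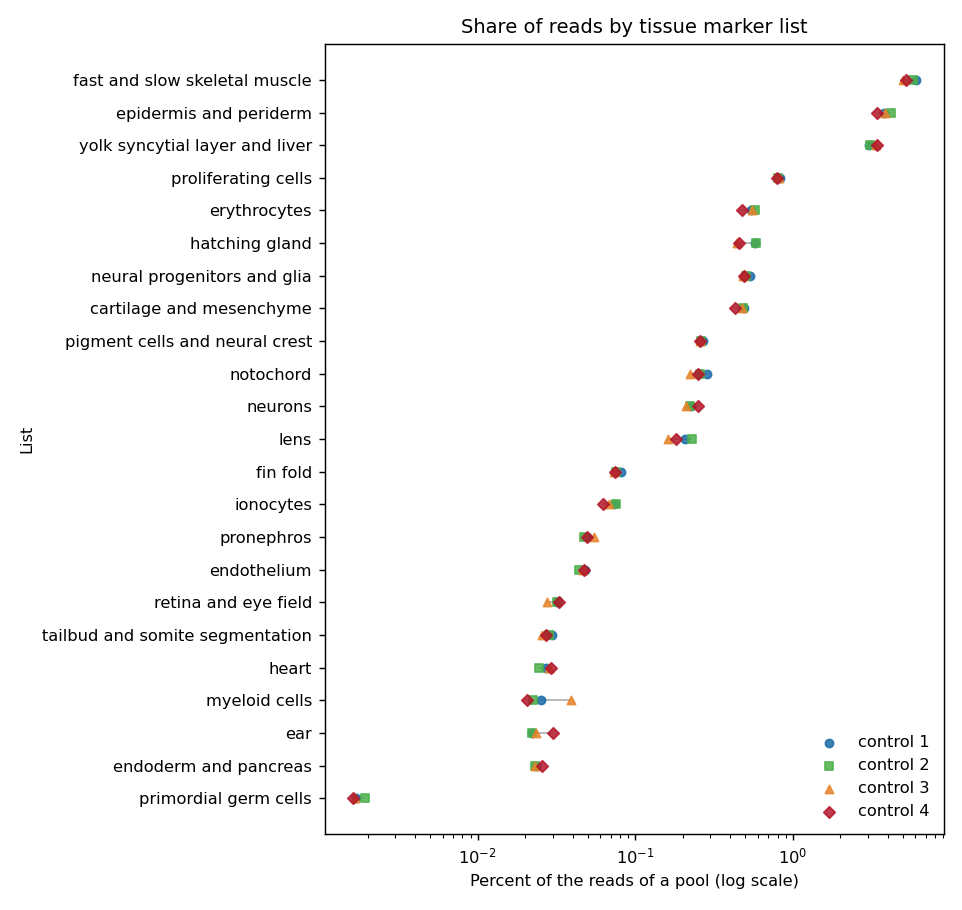
Share of a pool's reads taken by each tissue marker list, with percent of reads (log scale) on the horizontal axis; each symbol is 1 control pool and grey bars join lowest and highest. Means run from 5.53% for skeletal muscle to 0.00172% for primordial germ cells, and the myeloid list has the widest bar, with control 3 at 0.0392%.

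The pools agreed closely over most genes. Among the 8479 genes of at least 10 CPM the median CV was 8.92%, and edgeR's common biological CV was 12.6%. Pearson correlations of log2(CPM + 1) between pairs of pools, across genes, which are not independent replicates and share levels set by gene and transcript length, ran from 0.988 to 0.996. No pair was a copy, since the chi-square statistic of 2 pools, divided by its degrees of freedom, lay between 8.66 and 34.2. The spread came closer to the level of counting error in genes with few reads. From 1 to 10 CPM the median CV was 16.0% and counting alone gives 10.6%, from 10 to 100 CPM these were 9.11% and 4.06%, and at 1000 CPM or more 9.74% and 0.538%. Beyond-counting differences were called for 38.1% of the genes from 1 to 10 CPM and for all 140 of at least 1000 CPM.

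Most genes moved little in size. A highest pool at least 1.5 times the lowest was found for 792 of 8479 genes, and at least 2 times for 100, or 1.18%. The count at 1.5 times was 593, 675, 510 and 279 without controls 1, 2, 3 and 4 in turn. A gene's ratio cannot rise when a pool is left out, so a fall by itself says nothing. Differences beyond read counting, called for 7558 genes with all pools, were called for 6986, 7015, 6407 and 4307 in the same order. With a pool left out, fewer reads enter that test. Of the 140 genes of at least 1000 CPM, 19 reached 1.5-fold, or 13.6%. Among them were 7 of the 46 ribosomal protein genes and 7 of the 19 muscle genes of that abundance. The others included krt5, he1b, ybx1 and hmgb2b. In 685 genes, 8.08%, 1 pool lay apart from the other 3 by Dixon's criterion at 95%, which chance meets in about 1 in 20 genes. Control 4 was that pool for 343 genes above and 114 below the others, control 3 for 80 and 39, control 1 for 34 and 37, and control 2 for 21 and 17. The first principal component of log2(CPM + 1) held 45.2% of the variance between pools and set control 4, at 21.6, apart from the others, at -8.54 to -5.89. The second held 40.7% and ran from control 1, at -12.3, to control 3, at 18.7.

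Among the 12 genes with the largest ratio of highest to lowest pool, 11 were highest in control 3. The minimum of 10 CPM was on the mean over pools, so a gene high in 1 pool can pass through it alone. Below 10 CPM in every pool but control 3 were mmp13a, irg1l and hsp70l, so nothing is read from the 11. Control 3 was highest for 47 of the 100 genes at 2-fold. At 1.5-fold it was highest for 202 of 792 and control 4 for 337. Of all 8479 genes of at least 10 CPM, control 3 was highest for 22.9% and control 4 for 38.7%. The limit on the 11 holds for these counts too, so nothing is read from them. The collagenase gene mmp13a had 0.876, 1.97, 50.4 and 1.38 CPM, the immune-responsive gene irg1l 1.93, 9.89, 78.4 and 2.42 CPM and the gelatinase gene mmp9 7.89, 13.7, 92.0 and 7.92 CPM. In all 3, control 3 stood above the other pools and control 2 came next. Their ratios of highest to lowest pool were 57.5, 40.7 and 11.7. The heat-inducible Hsp70 gene hsp70l had 6.08, 9.17, 30.1 and 6.80 CPM and the glycine cleavage gene gldc 42.8, 42.1, 141 and 38.7 CPM. The monocarboxylate transporter family gene slc16a9b had 10.7, 16.5, 46.3 and 8.13 CPM, the galectin gene lgals2b 10.8, 8.34, 35.1 and 11.6 CPM, and timp2b, an inhibitor of matrix metalloproteinases, 12.1, 14.3, 34.1 and 14.5 CPM. The transcription factor gene ets2 had 9.41, 12.9, 27.4 and 9.92 CPM, cyp2aa6, a cytochrome P450, 7.65, 11.5, 21.7 and 15.9 CPM, and ggact.2 12.9, 6.79, 23.1 and 9.80 CPM. The exception was c3a.3, a complement component gene, with 14.8, 15.0, 17.7 and 46.1 CPM, high in control 4.

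The genes mmp9 and mmp13a are also on the myeloid marker list. That list took 0.0251%, 0.0223%, 0.0392% and 0.0206%, highest in control 3, where mmp9 and mmp13a made up 37.0% of its reads. Without them it took 0.0242%, 0.0207%, 0.0247% and 0.0196%, and controls 3 and 1 then lay next to each other above controls 2 and 4. Lysozyme, lyz, had 68.1, 57.6, 58.3 and 47.7 CPM, and the neutrophil peroxidase gene mpx had 45.3, 43.4, 36.9 and 28.1 CPM, both highest in control 1 and lowest in control 4. The macrophage gene mfap4 had 29.6, 22.9, 27.7 and 28.1 CPM. Another member of the list, lcp1, had 19.6, 17.8, 27.3 and 21.2 CPM, highest in control 3. The gene of the inflammatory cytokine interleukin 1 beta, il1b, was chosen after its values were seen. It had 0.351, 0.251, 4.49 and 0.625 CPM, highest in control 3. Control 3 was highest for 3 of the 8 myeloid genes of at least 10 CPM and control 1 for 5, against 22.9% and 19.9% of all such genes. In 5 of the 8 the highest pool was at least 1.5 times the lowest, or 62.5% against 9.34% of all such genes. Of the 8, mmp13a reached 10 CPM in control 3 alone, and mmp9 lay below it in controls 1 and 4. The counts for control 3 and for 1.5-fold include mmp9 and mmp13a, so nothing is read from either count.

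The 6 genes with the smallest ratio of highest to lowest pool had means from 17.3 to 224 CPM. The proline synthesis gene aldh18a1 had 90.7, 90.8, 90.9 and 90.5 CPM, a ratio of 1.004, and the others were usp39 (58.5 ± 0.363 CPM), etfb (224 ± 1.44 CPM), galnt2 (52.0 ± 0.291 CPM), patl1 (111 ± 0.680 CPM) and myoc (17.3 ± 0.119 CPM). None of these 6 differed beyond read counting in the chi-square test, which does not show that they were equal. Their CVs, 0.178% to 0.690%, lay under the CV of counting alone. Its median was 4.06% from 10 to 100 CPM and 1.65% from 100 to 1000 CPM. Picked as the smallest ratios of many genes, the 6 are not read as genes of steady expression. Of 25 genes often used as references in zebrafish, 20 were in the table. The 19 of at least 10 CPM had a median CV of 8.81%, close to the 8.92% of all genes of that abundance. Of these 19, 1 reached 1.5-fold, or 5.26% against 9.34%. Differences beyond counting were called for 18 of 20, against 63.0% of all genes tested and 94.0% of those from 100 to 1000 CPM. The TATA-binding protein gene tbp had 29.4, 31.5, 31.7 and 30.7 CPM, a CV of 3.41%, and b2m, at 2.13 ± 0.304 CPM, also did not pass. Beta-actin actb1 had 3426, 4259.9, 4111 and 3286 CPM, a CV of 12.9%, and rpl4, of the large ribosomal subunit, a CV of 14.3%. The elongation factor gene eef1a1l2, with 257, 399, 381 and 304 CPM, was the reference gene that reached a ratio of 1.5.

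**Figure D5:**
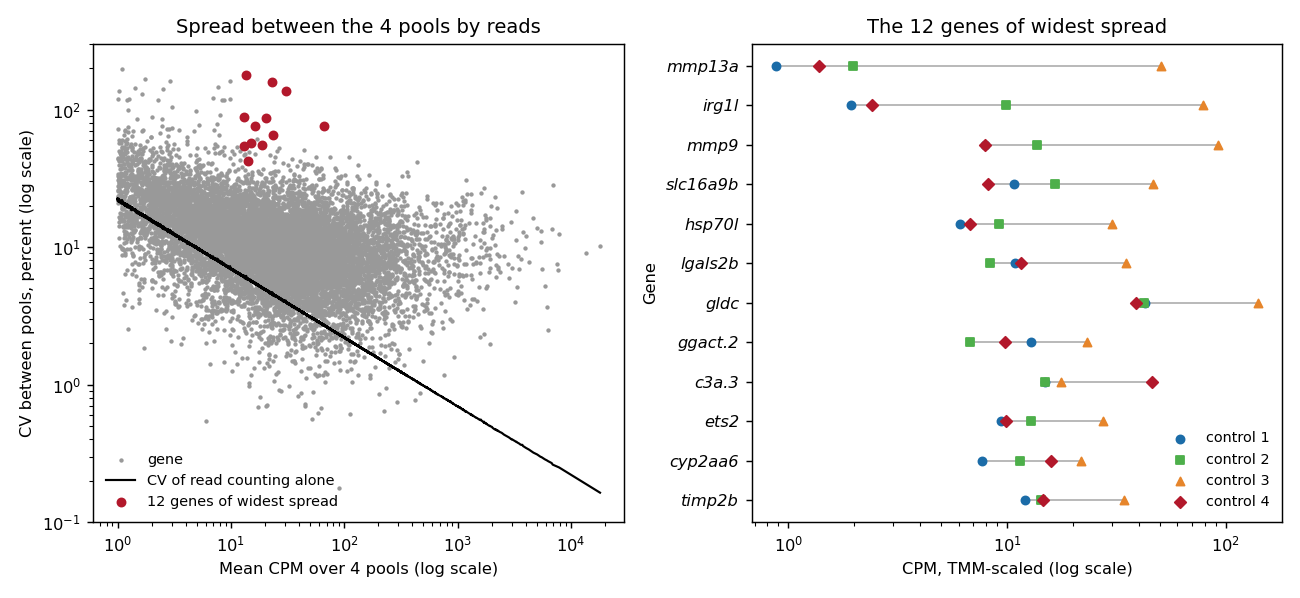
Left, CV between the 4 control pools (log scale) against mean CPM (log scale), with 1 point per gene of at least 1 CPM, the CV of read counting alone as a black line and the 12 genes of widest spread in red; right, TMM-scaled CPM (log scale) of those 12 genes in each pool. Control 3 is the highest pool in 11 of the 12, of which mmp13a, irg1l and hsp70l pass 10 CPM only there. For mmp13a that is 50.4 CPM against 0.876 to 1.97 CPM elsewhere.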

How the data were processed

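For each gene and pool the authors deposited a normalized signal, which is the read count over library size and TMM factor (CPM). Per the submitters' processing notes, reads were checked with FastQC, the genome build was danRer10 and R 3.6.1 was used. Which aligner, counting tool or filter on genes was used is not given in the sources used here. Dividing each column by its smallest step gave whole read counts for 100% of the values within 0.001 reads. No column of another series was present (0 columns unused). Shares of reads need no scaling, since the factor cancels within a pool.

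Python 3.11.15, numpy 2.4.6, pandas 2.3.3, scipy 1.17.1, R 4.3.3 and edgeR 4.0.16 were used; DESeq2 1.42.0 gave an alternative scaling. Recovered reads of genes of at least 1 CPM by mean were tested for homogeneity between pools by a chi-square test against the TMM-scaled library sizes, with Benjamini-Hochberg adjustment and a threshold of 0.05. The test measures read counting error and not replicate error. Ratios of highest to lowest pool and CVs were taken at a mean of at least 10 CPM, and principal components on log2(CPM + 1). The chi-square test was checked on simulated data with known changes. Counting intervals treat reads as independent molecules, which they are not without molecular identifiers.

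The 24 function lists and 23 tissue lists were matched by gene symbol and then by Entrez ID. Lists and members were chosen with earlier results of these data known, and the muscle and apolipoprotein lists and some exclusions were added after values were seen. Named genes were the first 30, up to 5 leading members per list, the 12 widest and 6 narrowest ratios, common reference genes and the middle and end of the ranking; not all of these are reported here. Others named beside them (pvalb1, pvalb2, myhz1.2, myhz2, il1b and those of the closing observations) were chosen after their values were seen. The ranking per coding length was not run, because transcript lengths were not used here. Pools of treated embryos were not analysed. The alternatives are given at the end.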

Additional observations from a re-analysis of the deposited data

Results flagged for a closer look

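With 4 pools, a value was singled out when the highest or the lowest pool lay apart from the other 3 by Dixon's criterion at 95%, which chance meets in about 1 in 20 groups. Of 47 list shares, 4 met it. Of a set of 125 genes named in the text, 20 did, against 8.08% of the 8479 genes of at least 10 CPM. The named genes include the 12 chosen for the widest ratio and others picked after their values were seen, so nothing is read from their number. The retina and eye field share was low in control 3, at 0.0275%. The share of pigment cells and neural crest was high in control 1, at 0.268%. In control 4 the shares of endoderm and pancreas, at 0.0256%, and of the ear, at 0.0299%, were high. The first member of the endoderm and pancreas list, neurod1, is also on the neuron list and was highest in control 4, at 60.9 CPM. In the ear list stm made up 32.6% of the reads, and 3 of 6 genes of at least 10 CPM were highest in control 2.

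Among genes, control 3 was the pool apart for 10. It was high at 50.4 CPM for mmp13a, 92.0 CPM for mmp9, 78.4 CPM for irg1l, 30.1 CPM for hsp70l, 140.7 CPM for gldc, 35.1 CPM for lgals2b and 34.1 CPM for timp2b. It was also high at 4.49 CPM for il1b, 71.0 CPM for arrdc2 and 47.4 CPM for pik3ip1.

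Control 4 was the pool apart for 9 genes. It was high for c3a.3 at 46.1 CPM, pts at 477 CPM, oc90 at 95.7 CPM, stm at 96.0 CPM, mrpl12 at 76.0 CPM and ran at 1665 CPM. The genes zgc:123078, zgc:136605 and zgc:194655 had 1 read each there, or 0.0417 CPM, under the limit that a count of 0 allows. Control 1 was high for myhz1.2, at 2410.1 CPM. Whether embryo handling, clutch or library preparation differed for control 3 or control 4 was not tested, since the labels give none of these.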

How the results depend on the processing

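Alternatives were each pool left out in turn, DESeq2 size factors, other pseudocounts, other minimums and ranking by the median. Mean shares with 1 pool left out cannot move by more than a fraction of the SD of the same pools, so they say nothing about stability. Counts and variances moved in 6 recomputed values, all concerning the spread between pools. Genes differing beyond read counting numbered 7558 and ranged from 4307, without control 4, to 7015 when 1 pool was left out. Genes with a ratio of at least 1.5 numbered 792 and ranged from 279, without control 4, to 675, with 510 without control 3. With no minimum on CPM they numbered 4122, most of the added genes having few reads. A gene's ratio cannot rise when a pool is left out, so a fall in this count says nothing by itself. The first component held 45.2% of the variance and 55.2% to 75.6% with a pool left out, 75.6% without control 3 and 74.2% without control 4; with 3 pools only 2 components remain. The common biological CV ran from 10.2% to 14.1% with a pool left out. Genes of fewer than 10 CPM are limited by depth. The ranking per coding length was not run. No paired analysis was possible because only 1 group was analysed.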

Other observations

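Of the 140 genes of at least 1000 CPM, 22 belonged to no function list and took 3.92% of the reads. The first of these was MGC174155, at rank 17 of the whole ranking, with 4151, 4480, 3339 and 4090 CPM. It was not counted among the placeholder names. Some of the others encode proteins that bind RNA, and those below are examples picked by hand. The Y-box protein gene ybx1, which packages mRNA, had 1733, 2022, 1897 and 2834 CPM, with control 4 above the others. The cold-inducible relative cirbpa had 1937, 1941, 1872 and 1959.6 CPM, and pabpc1a, the cytoplasmic poly(A)-binding protein gene, had 1491, 1625, 1651 and 2028 CPM. Outside RNA binding, ran, the small GTPase of nuclear transport, had 1137, 1204, 1200.2 and 1665 CPM, and ctnnb1, the gene of beta-catenin in cell adhesion and Wnt signalling, had 970.5, 1049.5, 1036 and 961 CPM. The receptor of activated C kinase on the ribosome, gnb2l1, had 2257, 2595, 2670.0 and 2769 CPM.

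A further set of genes with their highest or lowest value in control 3 or control 4 was chosen after their values had been seen and received no test beyond the one over all genes. The thioredoxin-interacting protein gene txnipa, a brake on glucose uptake in mammals, had 372, 432, 687 and 258 CPM. Of its relatives of the alpha-arrestin family, arrdc3a had 75.6, 78.7, 128 and 56.5 CPM, arrdc3b 59.9, 67.7, 125 and 49.1 CPM and arrdc2 36.6, 35.0, 71.0 and 34.2 CPM. The gene pik3ip1, an inhibitor of phosphatidylinositol 3-kinase in mammals, had 22.0, 18.9, 47.4 and 18.4 CPM. In all 5, control 3 was highest and control 4 lowest. The linker histone gene histh1l had 317, 369, 526 and 222 CPM, again highest in control 3 and lowest in control 4. In krtt1c19e, a keratin gene of basal epidermis, controls 1 and 2 were high and controls 3 and 4 low, with 439.7, 486, 241 and 281 CPM. The ATP synthase inhibitor gene atpif1a had 74.9, 87.6, 94.5 and 184 CPM, high in control 4.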
